A study of Mus musculus with 24 samples.

Results

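The comparison described here is that of mouse oocytes from follicles grown with blebbistatin against oocytes from untreated follicles, over all genes. Its members were chosen by their labels and not by any measured value: 8 oocyte libraries, 4 per group, out of the 24 RNA sequencing libraries of the series. The other 16 are 4 oocyte libraries from follicles grown with dextran and 12 granulosa cell libraries. The dextran oocytes enter the fit, where they share the estimate of the spread, and otherwise both are used only where named. Ovarian follicles of wild-type mice were set in a gel of alginate and kept until day 3 in medium with 10% serum, insulin, transferrin, selenium and 50 mIU/ml of follicle-stimulating hormone. That holds for both groups, and the blebbistatin group had 20 µM of the drug in its medium. Oocytes were taken mechanically from follicles that had passed 180 µm, and each library was made from a pool of 1 or 2 oocytes, so each value averages very few cells. Because only follicles that had grown past that size were taken, follicles that grew less are not represented. The labels speak of biological replicates without naming animals or cultures, so the p-values speak of the spread among the oocyte libraries, which may in part be technical. Nothing is said of a solvent in the control medium, nor of the age of the animals.

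Blebbistatin holds nonmuscle myosin II, the motor that pulls on actin filaments, in a state that binds actin only weakly. In follicles myosin II tenses the cell cortex of the oocyte and of the granulosa cells, the somatic cells that surround the oocyte and feed it through fine cell projections and gap junctions. A growing oocyte stores RNA and protein for the embryo, secretes growth factors that act on granulosa cells, and covers itself with the zona pellucida, a glycoprotein coat. It is arrested in meiosis, and once fully grown it largely stops transcription, so that a transcript's level then follows its storage and decay.

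Every oocyte library carried the oocyte's own transcripts at high levels. All 20 listed oocyte markers were at 5 or more CPM (counts relative to the library total) in all 8 libraries, and their summed level was 32943 to 43196 CPM after blebbistatin and 31313 to 37528 CPM in controls. Total counts ran from 14543900 to 18399600. Granulosa transcripts were present too, and unevenly. Inha, the inhibin alpha subunit that granulosa cells make in large amounts, stood at 208, 53.6, 46.5 and 16.4 CPM of the library total in blebbistatin replicates 1 to 4. In control replicates 1 to 4 it stood at 283, 1513, 37.2 and 12.5 CPM, against a mean of 16761 CPM in the 4 granulosa control libraries. As a share of the mean of the 4 granulosa libraries of the same treatment, which is lower for blebbistatin than for control, Inha stood at 9.02% in control replicate 2, at 1.69% in control replicate 1, at 1.79% in blebbistatin replicate 1 and, in the other 5 libraries, at 0.075% to 0.46%. Inhbb, which encodes the beta B chain of activin B and inhibin B, was at 3.74, 0, 0.71 and 0.066 CPM after blebbistatin and at 21.7, 60.4, 0.99 and 0.90 CPM in controls. Amh, the anti-Müllerian hormone gene of granulosa cells, was at 1.09, 0.89, 0.32 and 0.066 CPM after blebbistatin and at 10.3, 49.2, 0.86 and 0 CPM in controls. For all 3 genes the highest library was control replicate 2 and the groups overlapped. In libraries made from whole pools, fewer attached granulosa cells and less RNA per attached cell cannot be told apart.

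**Figure D1:**
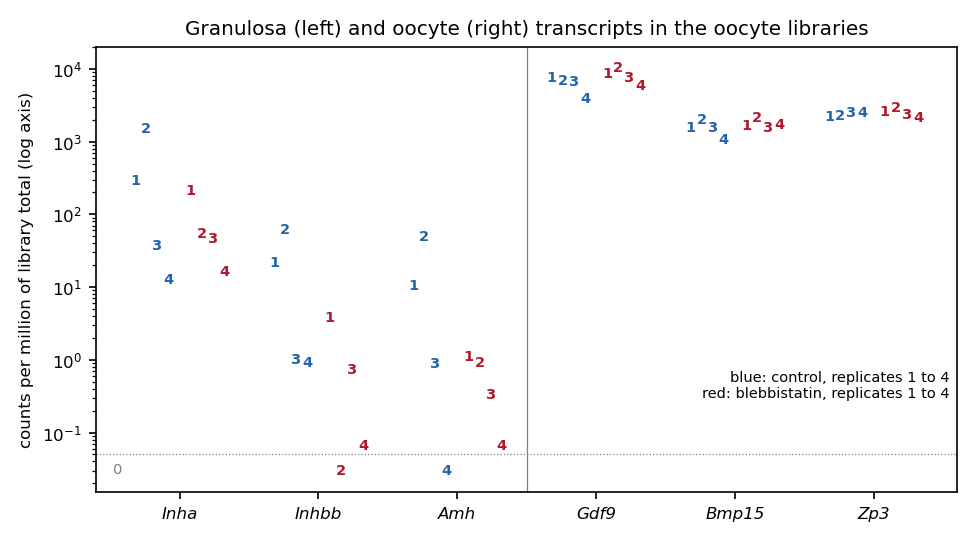
CPM of the library total (log axis) of 3 granulosa genes (left of the line) and 3 oocyte genes (right) in the 8 oocyte libraries. Each digit is a replicate, blue for control and red for blebbistatin, and digits under the dotted line are at 0. Control replicates 2 and 1 stand highest for Inha, Inhbb and Amh, while the oocyte genes lie close together in both groups.

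The whole granulosa marker list showed the same libraries high. Its summed level was 583 to 921 CPM after blebbistatin and 671 to 3485 CPM in controls, and 0 of its 20 genes were at 0 in all 8 libraries. Of these, 7 were at 5 or more CPM in all 8 (Inha, Cyp19a1, Nr5a2, Gja1, Serpine2, Esr2 and Gata4). Cyp19a1 went against its place in the list, with 17.6 to 32.6 CPM in the oocyte libraries and a mean of 8.89 CPM in granulosa controls. Serpine2, at 371 to 743 CPM, and Esr2, at 110 to 141 CPM, made up most of the summed level in the libraries with least Inha, so the sum is not a measure of granulosa RNA alone. Markers of other cells were low. The summed level of 15 theca and stromal markers was 17.8 to 35.7 CPM after blebbistatin and 20.0 to 31.5 CPM in controls, with 5 at 0 in all 8 libraries. For 10 immune markers it was 40.8 to 64.2 against 41.7 to 47.2 CPM, with 4 at 0 in all 8, and for 8 endothelial markers 113 to 152 against 83.7 to 134 CPM. Most of each of these sums came from 1 gene. These were Myh11 (17.3 to 34.0 CPM), C1qb (30.6 to 52.7 CPM) and Pecam1 (65.4 to 130 CPM), present in all 8 oocyte libraries. Their means in granulosa controls were 0.77, 0.024 and 1.2 CPM. The sums are therefore not a measure of those other cells alone. The 5 erythroid markers, 4 globin genes and Alas2, reached 102.5 CPM together in control replicate 4 and at most 0.76 CPM in the other 7 libraries. The mitochondrially encoded share of counts was 0.064% to 0.124% after blebbistatin and 0.225%, 0.443%, 0.043% and 0.087% in control replicates 1 to 4, again highest in control replicate 2.

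The main comparison asks which oocyte transcripts differed between follicles grown with and without blebbistatin. None of 16749 genes tested, out of 78298 in the table, passed (edgeR quasi-likelihood test, threshold of 0.05 on the p adjusted over all genes; 0% called). At an unadjusted p under 0.05 there were 686 genes, 4.10% of those tested, of which 230 were higher (1.37%) and 456 lower (2.72%) after blebbistatin. These shares are the background for every count of list members in the text. Both groups lay fully apart for 437 genes (2.61%), with 202 above (1.21%) and 235 below (1.40%). Limma voom called 0 genes and DESeq2 called 16, of which 15 were lower. Over all tested genes 8136 log2 differences were positive and 8613 negative, with a median of −0.01. In the text, levels are CPM scaled by TMM factors unless said otherwise, values are listed for replicates 1 to 4, means are ± SD (n = 4 per group) and log2 differences are blebbistatin minus control ± their standard error (SE).

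The precision depended on the level. The 95% interval of the log2 difference lay within 1 of 0 (less than a doubling or halving) for 98.7% of the 2364 genes over 100 CPM and for 96.5% of the 4358 genes between 20 and 100 CPM. It did so for 71.3% of genes between 5 and 20 CPM, for 15.2% between 1 and 5 CPM and for 0 of 2043 genes under 1 CPM. Over all genes this came to 9805 of 16749. The interval thus stayed short of a 2-fold difference for most genes over 5 CPM and reached it for most genes under 5 CPM. These intervals are not adjusted for the number of genes tested. They do not show which differences could have passed the adjusted threshold.

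Lower genes were frequent among granulosa transcripts. A gene was called granulosa-rich where its level in granulosa controls was at least 10-fold that in the dextran oocytes, and oocyte-rich in the opposite case. The 1193 granulosa-rich genes had a median log2 difference of −0.71, 90.0% were negative, and 1 was higher and 158 lower at an unadjusted p under 0.05. The 1905 oocyte-rich genes had a median of 0.05 with 46 higher and 21 lower, and the 13651 genes between had a median of 0.00 with 183 higher and 277 lower. With control replicate 2 left out, the granulosa-rich median was −0.08, with 20 higher and 21 lower, and over all genes 311 were higher and 296 lower. With control replicates 1 and 2 both left out, a setting chosen after seeing the data, the granulosa-rich median was 0.38, with 94 higher and 8 lower. These were the controls with most Inha, so a rise was largely built into that setting. Of the 456 lower genes, control replicate 2 was the highest control for 245 (53.7%), against 32.1% of all tested genes, and 205 still had an unadjusted p under 0.05 in the same direction without that library. Of the 230 higher genes 134 did. The part of granulosa RNA in the difference of any 1 gene was not tested, and the value without control replicate 2 is given beside the genes it moves.

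**Figure D2:**
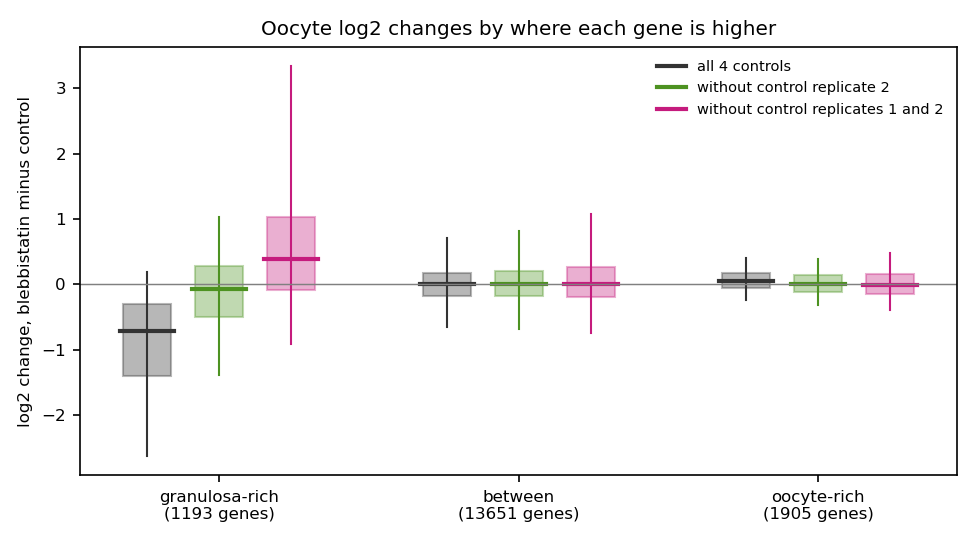
Log2 differences (blebbistatin minus control) of 1193 granulosa-rich, 13651 intermediate and 1905 oocyte-rich genes. Bars show the median, boxes the 25th to 75th percentile and lines the 5th to 95th percentile, with all 4 controls (grey), without control replicate 2 (green) and without control replicates 1 and 2 (pink). The granulosa-rich median moves from −0.71 to −0.08 and 0.38, while the other 2 classes stay within 0.05 of 0.

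The smallest p-values belonged to 2 nuclear genes that were lower after blebbistatin. Anp32b (ENSMUSG00000028333) encodes an acidic nuclear phosphoprotein that acts as a histone chaperone. It was at 152, 134, 127 and 144 CPM after blebbistatin and at 222, 293, 223 and 229 CPM in controls, so that every blebbistatin library lay below every control. The log2 difference was −0.80 ± 0.12 (95% interval −1.05 to −0.54), and it did not pass (unadjusted p = 6.56e-06, edgeR adjusted p = 0.0865). Ash2l (ENSMUSG00000031575) encodes a core subunit of the complexes that methylate histone H3 at lysine 4, a mark of active promoters. It was at 37.1, 36.8, 42.6 and 36.9 CPM after blebbistatin and at 71.4, 72.7, 62.4 and 76.9 CPM in controls, again without overlap. Its log2 difference was −0.89 ± 0.14 (95% interval −1.18 to −0.59; unadjusted p = 1.03e-05, edgeR adjusted p = 0.0865). Both genes are expressed by granulosa cells at levels not far from those of the oocyte, 339.8 against 244 CPM of the library total for Anp32b and 85.1 against 71.5 CPM for Ash2l. Without control replicate 2 the log2 differences were −0.69 ± 0.11 and −0.88 ± 0.15. Both passed where the filter on low values was changed: with no filter the edgeR adjusted p was 0.0121 for Anp32b and 0.0140 for Ash2l, and with a minimum of 5 CPM in 4 libraries it was 0.0409 and 0.0433. Both were also among the 16 genes that DESeq2 called.

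The next lower genes by p were Noct, Wdr59, Wrnip1 and Stk11. Noct encodes nocturnin, an enzyme related to the CCR4 deadenylases that removes a phosphate from NADP cofactors. It was at 93.1, 66.9, 68.1 and 78.3 CPM after blebbistatin and at 116, 148, 158 and 159 CPM in controls, with no overlap (log2 difference −0.92 ± 0.18, edgeR adjusted p = 0.527, 0.0121 with no filter and 0.00335 by DESeq2). Its level in granulosa controls was 14.1 CPM of the library total against 146 CPM in oocyte controls, and the log2 difference without control replicate 2 was −0.92 ± 0.19. Wdr59, a subunit of the GATOR2 complex that relays amino acid supply to mTORC1, was at 1.59, 2.48, 1.3 and 1.97 CPM after blebbistatin and at 11.3, 14.7, 4.44 and 4.1 CPM in controls. The groups did not overlap, but the 2 controls with most Inha were the highest, and granulosa controls held 193 CPM. Its log2 difference was −2.23 ± 0.45 (edgeR adjusted p = 0.589, 0.0352 with no filter and 0.00546 by DESeq2), −1.85 ± 0.44 without control replicate 2 and −1.22 without control replicates 1 and 2.

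Wrnip1, an ATPase that acts at stalled replication forks, was at 14.2, 12.6, 15.7 and 10.8 against 26, 30.3, 28.8 and 17.1 CPM, without overlap (log2 difference −0.94 ± 0.20, edgeR adjusted p = 0.866, 0.0285 by DESeq2). Stk11 encodes LKB1, the kinase that activates AMPK. It was at 32.7, 29.8, 43.1 and 29.5 against 44.7, 53.9, 65.9 and 57 CPM, also without overlap (log2 difference −0.71 ± 0.16, edgeR adjusted p = 0.866, 0.0333 by DESeq2). Without control replicate 2 the log2 differences of these 2 genes were −0.85 ± 0.21 and −0.73 ± 0.18.

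On the higher side the 6 genes with the smallest p were Fahd2a, Necap2, Bcas1, Zfp28, Myocos and Trpm4, and none passed (edgeR adjusted p = 0.986 for Fahd2a and 1 for the others). Fahd2a, of the fumarylacetoacetate hydrolase domain family, was at 12.6, 16.6, 13.5 and 9.87 CPM after blebbistatin and at 5.49, 5.67, 7.71 and 8.08 CPM in controls (log2 difference 0.96 ± 0.26). Necap2, an adaptor of clathrin-coated vesicles, was at 39.9, 47.2, 40 and 29.7 against 26.1, 28.4, 27.9 and 22.4 CPM (0.58 ± 0.17). Both genes had every blebbistatin library above every control. Bcas1 was at 46, 43.4, 43.5 and 36.6 against 32.7, 29.8, 26.6 and 31.5 CPM (0.49 ± 0.15), without overlap, and was at 0 in the granulosa controls. Zfp28, a zinc finger gene, was at 26.1, 29.1, 36.7 and 30.6 against 20.7, 20, 26.1 and 18.5 CPM (0.52 ± 0.16), and Myocos was at 108, 150.2, 119 and 100.03 against 75.3, 75.8, 100.05 and 87.5 CPM (0.49 ± 0.15). Their groups overlapped by a narrow margin in 1 library each. Trpm4, a cation channel opened by calcium, was at 8.82, 6.62, 7.66 and 6.97 against 3.81, 5.25, 4.68 and 1.87 CPM (0.94 ± 0.30), without overlap and with control replicate 4 the lowest.

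**Figure D3:**
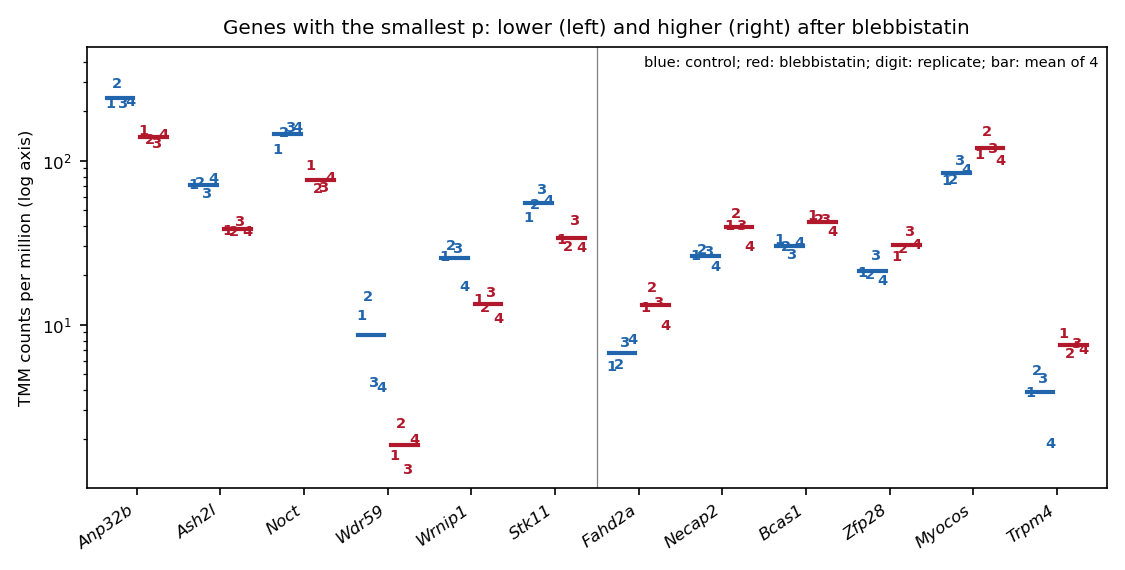
TMM-scaled CPM (log axis) of the 6 lower (left) and 6 higher (right) genes with the smallest p. Each digit is a replicate, blue for control and red for blebbistatin, and bars are means of 4 libraries. The groups lie apart for 10 of the 12 genes, and touch for Zfp28 and Myocos. Because the genes were chosen by p in these same libraries, this count is no separate result. Over all tested genes the groups lie apart for 2.61%.

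Oocyte identity genes lay close to the control level with all 4 controls. Of the 20 oocyte markers 18 had a positive log2 difference, with a median of 0.09 (0.02 without control replicate 2), and 1 was higher at an unadjusted p under 0.05 where all tested genes gave 1.37%. Gdf9, the growth factor through which the oocyte drives granulosa proliferation, was at 8383, 10184, 7565 and 5773 CPM after blebbistatin and at 7383, 6653, 6641 and 3892 CPM in controls. The groups overlapped and control replicate 4 was the lowest, with a log2 difference of 0.38 ± 0.19 (95% interval −0.03 to 0.78). It was 0.42 ± 0.21 without control replicate 2 and 0.52 ± 0.20 with the granulosa marker level as a covariate. Without control replicates 1 and 2 it was 0.59 ± 0.23 (edgeR unadjusted p = 0.021, adjusted p = 0.957). The partner of Gdf9, Bmp15, was at 1589, 2106, 1562 and 1710.1 against 1507, 1912, 1556 and 1062 CPM, with the interval from −0.17 to 0.58. Its log2 difference was 0.21 ± 0.17, and 0.34 ± 0.17 without control replicate 2. Without control replicates 1 and 2 it was 0.41 ± 0.20. For the zona pellucida genes Zp1, Zp2 and Zp3 the log2 differences were 0.02 ± 0.13, 0.15 ± 0.15 and 0.08 ± 0.17. Zp3, which encodes a main filament protein of the coat, was at 2500.4, 2952, 2294 and 2128 CPM after blebbistatin and at 2146, 2176, 2476 and 2521 CPM in controls. Its 95% interval, −0.27 to 0.44, lay within 0.5 of 0. Of the 11 zona and oocyte surface genes tested, 1 was higher and 1 lower at an unadjusted p under 0.05. The higher was Cd9, a tetraspanin of the egg membrane needed for sperm fusion, at 239, 276, 206 and 209 against 155, 198, 198 and 175 CPM (log2 difference 0.35 ± 0.15), with no overlap. The lower was its relative Cd81, which granulosa cells express at 1012 CPM. It was at 12.5, 7.8, 4.15 and 3.55 against 28.4, 94.4, 9.8 and 3.32 CPM (−2.28 ± 0.85, and −0.98 ± 0.58 without control replicate 2).

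The transcription factors that establish the oocyte's programme showed the same closeness. Figla, which activates the zona genes, was at 19, 18, 18.7 and 17.4 against 20.1, 11.4, 24.3 and 16.8 CPM (0.01 ± 0.21), and Nobox at 881, 939, 986 and 904 against 916, 705, 1005 and 986 CPM (0.04 ± 0.12). Blebbistatin libraries of both genes lay inside the range of the controls. All 14 of 14 tested oocyte transcription factors had a log2 difference within 0.5 of 0. Only the nuclear receptor gene Nr5a2, which is also a granulosa gene, had an unadjusted p under 0.05 (−0.38 ± 0.17, and −0.24 without control replicate 2). Kit, the receptor that receives the granulosa signal for oocyte growth, was at 189.8, 212, 187 and 229 against 216, 307, 162 and 178 CPM (−0.08 ± 0.18, and 0.14 ± 0.15 without control replicate 2). The subcortical maternal complex, a protein assembly under the oocyte's membrane that the early embryo needs, had 8 of 10 members positive and a median of 0.15. Its 2 members higher at an unadjusted p under 0.05 were Khdc3 (0.29 ± 0.12), a scaffold protein of the complex, and Nlrp5 (0.55 ± 0.25), also known as MATER. Khdc3 was at 951, 1053, 1122 and 892 against 698, 733, 934 and 921 CPM. Nlrp5 was at 411, 782, 366 and 286 against 309.7, 323, 355 and 274 CPM, with blebbistatin replicate 2 far above the other 7 libraries and the groups overlapping.

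The drug's target and its regulators showed no passing difference. Of 24 genes of nonmuscle myosin II chains and regulators 22 were tested, of which 0 were higher and 1 lower at an unadjusted p under 0.05, with a median of −0.03 (all genes −0.01). Myh9, the heavy chain of myosin IIA, was at 8.59, 5.45, 5.25 and 4.21 CPM after blebbistatin and at 4.01, 5.25, 2.47 and 5.31 CPM in controls. Blebbistatin replicate 1 was the highest of the 8 and the groups overlapped (0.46 ± 0.32, 95% interval −0.21 to 1.14). Myh10, the heavy chain of myosin IIB, was at 11.2, 6.9, 4.67 and 4.67 against 4.75, 15, 6.29 and 4.1 CPM (−0.14 ± 0.40, and 0.44 ± 0.34 without control replicate 2, which was its highest library). The regulatory light chain genes were measured more tightly, with −0.03 ± 0.11 (95% interval −0.26 to 0.20) for Myl12a and −0.06 ± 0.20 (−0.48 to 0.36) for Myl12b. Rhoa, the GTPase that switches myosin II on, was at 161, 152, 148 and 148 against 131, 166, 152 and 175 CPM (−0.04 ± 0.11), and its kinase Rock1 at 214, 146, 164 and 196 against 164, 189, 173 and 181 CPM (0.03 ± 0.13). The second kinase, Rock2, was the member with an unadjusted p under 0.05. It was at 2.29, 4.76, 1.56 and 5.72 against 5.96, 9.06, 7.09 and 4.46 CPM, with overlap (−0.89 ± 0.40, edgeR adjusted p = 1), and granulosa controls held 40.7 CPM. Its log2 difference was −0.71 ± 0.42 without control replicate 2. Among 15 unconventional myosins, motors that carry cargo and build projections, 1 was lower at an unadjusted p under 0.05: Myo1e, a membrane-linked motor, at 35.2, 17.5, 38.3 and 20 against 44.3, 76.9, 43.6 and 33.3 CPM (−0.84 ± 0.33, and −0.54 ± 0.31 without control replicate 2).

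**Figure D4:**
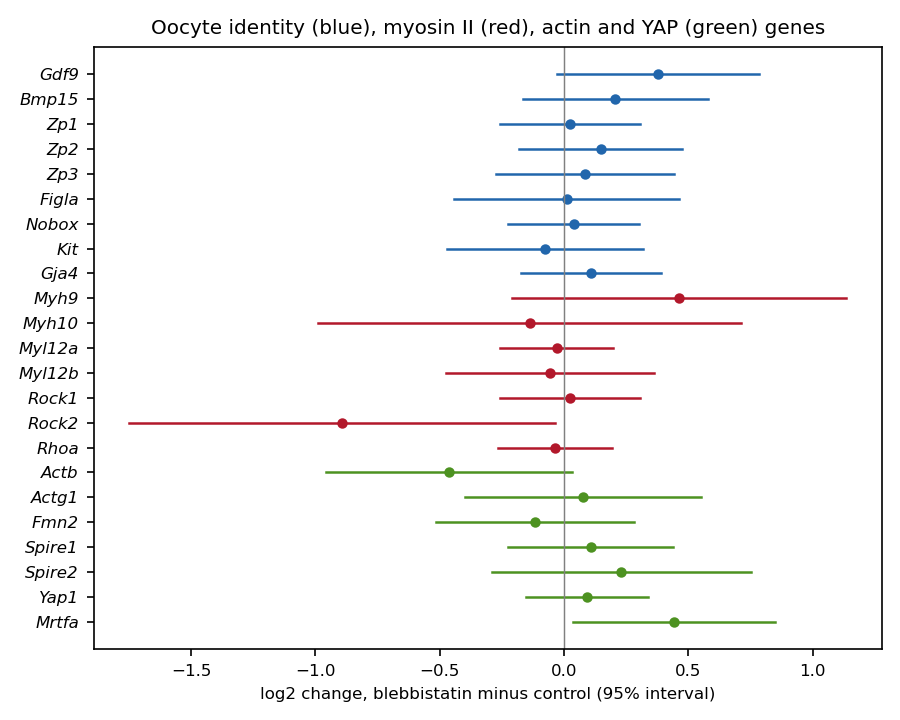
Log2 differences (blebbistatin minus control, points) with 95% intervals (lines) of 9 oocyte identity genes (blue), 7 myosin II genes (red) and 7 actin, SRF cofactor and YAP genes (green). All intervals include 0 except those of Rock2 and Mrtfa, and the oocyte genes have intervals within 1 of 0.

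Actin genes of the oocyte lay close to the control level. All 40 of 40 genes for actin nucleation and the cortex had a log2 difference within 0.5 of 0, against 13609 of 16749 tested genes, and 0 had an unadjusted p under 0.05. These shares are not for equally precise values. The median SE was 0.16 for the list and 0.28 over all tested genes, which include many of low level. The median log2 difference of the list was 0.00. Without control replicate 2 it was 0.03, with 3 of the 40 higher and 0 lower at an unadjusted p under 0.05. In that setting 311 of the 16749 tested genes were higher and 296 lower. Fmn2, the formin that builds the oocyte's actin mesh, was at 99, 58.4, 78.9 and 104 against 91.7, 94.1, 78.3 and 106 CPM (−0.12 ± 0.19). Its nucleation partners Spire1 and Spire2 had log2 differences of 0.11 ± 0.16 and 0.23 ± 0.24. The cytoplasmic actins differed between settings. Actb was at 107, 80.9, 89.5 and 77.4 against 107, 202, 83.8 and 97.1 CPM (−0.46 ± 0.23, and −0.11 ± 0.16 without control replicate 2). Actg1 was at 87.5, 81.4, 80.2 and 76.4 against 69.3, 127, 47.6 and 64.5 CPM (0.08 ± 0.22, and 0.43 ± 0.15 without control replicate 2, unadjusted p = 0.012). For both genes control replicate 2 was the highest of all 8 libraries, and granulosa controls held 1639 and 528 CPM.

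SRF is the transcription factor that follows the pool of free actin through the cofactor MRTF. Of 30 listed genes of actin and SRF targets 21 were tested, with 1 higher and 0 lower at an unadjusted p under 0.05 and a median of −0.11. The higher one was the cofactor gene Mrtfa itself, at 22.9, 21.9, 28.4 and 29.3 CPM after blebbistatin and at 16.3, 20.2, 20.6 and 18.4 CPM in controls. The groups did not overlap, although the closest libraries were 21.9 and 20.6 CPM (0.44 ± 0.19, edgeR adjusted p = 1). Yap1, the mechanically controlled coactivator of the Hippo pathway, was at 126, 128, 124 and 143 against 118, 129.7, 110.2 and 131 CPM (0.09 ± 0.11, 95% interval −0.15 to 0.34). Of 18 tested Hippo pathway genes and 13 tested YAP and TAZ targets 0 had an unadjusted p under 0.05, with medians of −0.08 and −0.01. The best-known targets Ccn1, Ccn2 and Ankrd1 were too low in oocytes to be tested. Among 21 tubulins and microtubule proteins 3 were higher and 1 lower at an unadjusted p under 0.05, against 1.37% and 2.72% of all genes tested. Tuba1c, an alpha tubulin, was at 133, 136, 199 and 150.3 against 109, 127, 119 and 119.7 CPM (0.39 ± 0.13), and Tubb2a, a beta tubulin, at 495, 587, 536 and 466 against 385, 390.3, 460.0 and 428 CPM (0.33 ± 0.11), both without overlap. The third was Tubg2, a gamma tubulin named after its values were seen, at 92.8, 166, 103 and 83.7 against 64.2, 64.5, 83.8 and 71 CPM (0.65 ± 0.25). Map4, which stabilises microtubules, was the lower one (−0.27 ± 0.12). Without control replicate 2 the 3 tubulins had log2 differences of 0.42, 0.29 and 0.61, and none passed in either setting.

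Chromatin genes held both leading genes of the comparison. Of 24 tested histones and histone chaperones 0 were higher and 4 lower at an unadjusted p under 0.05, against 1.37% and 2.72% of all genes, with a median of −0.13. The list was drawn up with Anp32b known to lead these data, so its count is no independent evidence. Beside Anp32b the 4 were its relatives Anp32a and Anp32e and the H3-H4 chaperone gene Asf1a, of which Anp32e and Asf1a were named after their values were seen. Anp32a was at 10, 8.07, 8.95 and 8.81 CPM after blebbistatin and at 15.7, 24.4, 12 and 10.5 CPM in controls. The groups did not overlap, but the highest controls were replicates 2 and 1, granulosa controls held 133 CPM, and the log2 difference moved from −0.80 ± 0.26 to −0.51 ± 0.24 without control replicate 2. Anp32e, a chaperone that removes the variant H2A.Z, was at 15.6, 12.7, 10.1 and 16 against 24.8, 52.2, 11.6 and 15.1 CPM (−0.93 ± 0.37, and −0.34 without control replicate 2). Asf1a was at 369, 377, 358 and 355 against 439.9, 409, 414 and 483 CPM (−0.26 ± 0.10, and −0.29 without control replicate 2). Of the 18 genes of H3K4 methylation and demethylation only Ash2l had an unadjusted p under 0.05. Its partners in the core of the complexes, chosen after their values were seen, had log2 differences of 0.17 ± 0.11 (Wdr5), 0.09 ± 0.19 (Rbbp5) and −0.07 ± 0.13 (Dpy30). Catalytic subunits had 0.06 ± 0.23 (Kmt2b) and −0.12 ± 0.16 (Kmt2d). The oocyte's DNA methylation genes had 2 of 16 lower at an unadjusted p under 0.05. Nsd1, which encodes a methyltransferase of H3K36, was at 175, 168, 176 and 204 against 233, 224, 193 and 224 CPM (−0.27 ± 0.10). Tdg, a DNA glycosylase, was under 1 CPM in all 4 blebbistatin libraries and at 4.55, 17.3, 0.616 and 0 CPM in controls, and granulosa controls held 161 CPM (−3.37 ± 1.46, and −1.65 ± 1.38 without control replicate 2).

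Among genes that store, tail and remove maternal RNA, 2 were lower at an unadjusted p under 0.05. Of 23 deadenylation and uridylation genes 20 had a log2 difference within 0.5 of 0, and the farthest from 0 was Zfp36l1, named after its value was seen (−1.41, unadjusted p = 0.0971). The 1 lower at an unadjusted p under 0.05 was Tut7, which adds uridines to short poly(A) tails of stored messages. It was at 32.3, 18.4, 26.1 and 25 CPM after blebbistatin and at 41.9, 40.2, 46.3 and 37.3 CPM in controls, with all blebbistatin libraries below all controls (−0.70 ± 0.17, edgeR adjusted p = 0.866, 0.0491 by DESeq2, and −0.72 ± 0.18 without control replicate 2). Of 17 RNA storage and translation genes 1 was lower, Ybx1, an RNA-binding protein of somatic cells and germ cells, at 60.5, 49.6, 54.4 and 42.4 against 63.7, 75.3, 85.2 and 97.6 CPM without overlap (−0.64 ± 0.24, and −0.67 ± 0.26 without control replicate 2). Hnrnpu, a nuclear RNA-binding scaffold protein, was the 1 of 30 splicing genes with an unadjusted p under 0.05, at 118, 95.9, 94 and 103 against 139.7, 152, 121 and 157 CPM (−0.47 ± 0.12). Gar1, a protein of the particles that pseudouridylate ribosomal RNA, was the 1 of 26 genes of ribosome biogenesis, at 9.29, 6.56, 12.5 and 11.7 against 13.9, 20, 20.8 and 17.5 CPM (−0.85 ± 0.22). Both showed no overlap between the groups. The 78 cytosolic ribosomal protein genes had 17 positive and 61 negative log2 differences, a median of −0.10 and 4 lower at an unadjusted p under 0.05. Without control replicate 2 their median was −0.04 and 0 were lower at an unadjusted p under 0.05, but 57 were still negative. Without control replicates 1 and 2 there were also 57 negative, with a median of −0.08. Rps19 and Rpl29 had −0.43 ± 0.18 and −0.36 ± 0.16, and −0.18 and −0.21 without control replicate 2.

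Meiosis genes lay near the control level. Of 30 genes of meiotic arrest and resumption 2 were lower at an unadjusted p under 0.05. One of them, Ccnb3, a cyclin needed for leaving the first meiotic metaphase, was at 18.8, 13.5, 21.3 and 30.1 against 29.4, 37.4, 22.8 and 27.7 CPM (−0.49 ± 0.23). Its groups overlapped. Of 27 genes of the spindle, kinetochore and cohesin 0 had an unadjusted p under 0.05, 27 had a log2 difference within 0.5 of 0, and the median was −0.05. Transposon silencing had 3 of 18 genes lower at an unadjusted p under 0.05. They were Mov10l1, a helicase of piRNA biogenesis (−0.69 ± 0.30), Marf1, an RNase that limits retrotransposons in oocytes (−0.40 ± 0.17), and the Argonaute gene Ago1, named after its value was seen (−3.17 ± 1.40). Mov10l1 was at 0 in granulosa controls, and it was at 3.59, 5.93, 7.01 and 5.39 against 9.57, 9.33, 6.29 and 10.2 CPM in the oocytes, with overlap.

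In signalling, Stk11 was the 1 of 31 genes of the PI3K, FOXO3, mTOR and Kit pathways with an unadjusted p under 0.05, and the median was −0.08. Of 23 BMP and TGF-beta genes the 1 lower was Bambi, a decoy receptor that dampens these signals. It was at 6.12, 1.45, 3.57 and 3.81 CPM after blebbistatin and at 10.4, 6.41, 14.7 and 16 CPM in controls. The groups lay apart by a small margin, 6.12 against 6.41 CPM, and here control replicate 2 was the lowest control. The log2 difference was −1.66 ± 0.43, and −1.87 ± 0.42 without that library (edgeR adjusted p = 0.936 with it). Immediate early genes, which respond within minutes to stress and growth signals, had a median of −0.40 over 17 tested (−0.33 without control replicate 2), with 13 negative. The 2 lower at an unadjusted p under 0.05 were Ier2 and Jund. Ier2 was at 4.35, 5.73, 2.21 and 4.74 against 8.03, 9.48, 12 and 5.06 CPM (−1.02 ± 0.35), and Jund was near 1 CPM (−1.10 ± 0.48). Only 5 of the 17 had a 95% interval within 1 of 0.

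Stress defence genes included Gsta4, a glutathione transferase that detoxifies products of lipid oxidation. It was at 63, 60.5, 80.4 and 63.7 CPM after blebbistatin and at 118, 69.9, 155 and 141 CPM in controls. Control replicate 2 was the lowest control and lay inside the blebbistatin range, the reverse of the granulosa genes (−0.85 ± 0.21, edgeR adjusted p = 0.936, and −1.05 ± 0.16 without it). Granulosa controls held 28.7 CPM. Gsta4 was 1 of 3 lower at an unadjusted p under 0.05 among 27 genes of the AhR, NRF2 and glutathione list. The others were Gclm, a subunit of the enzyme that starts glutathione synthesis (−0.70 ± 0.24), and Keap1, the inhibitor of NRF2, named after its value was seen (−0.50 ± 0.23). The list's median was −0.29, and 0.01 without control replicate 2. Ftl1, a ferritin chain gene, was at 116, 107, 61.8 and 41.4 against 84.6, 241, 72.2 and 44.4 CPM in oocytes (−0.44 ± 0.56, and 0.28 ± 0.42 without control replicate 2), where granulosa controls held 1862 CPM. Cyp1b1, a target of the aryl hydrocarbon receptor, was at 2.94, 3.52, 2.21 and 2.04 against 5.49, 7.52, 0.555 and 0.181 CPM, with the controls spread on both sides of the blebbistatin libraries (−0.36 ± 0.83). Peroxiredoxins and thioredoxins had 2 of 16 lower: Prdx6 (−1.04 ± 0.34, and −0.72 ± 0.33 without control replicate 2) and Prdx4 (−1.66 ± 0.67, and −0.31 ± 0.48), enzymes that reduce peroxides.

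The medians of several metabolic lists depended on control replicate 2. The 12 tested mitochondrially encoded genes had a median of −1.10 with 11 negative, and −0.35 without control replicate 2. The direction turned without control replicates 1 and 2, with 10 positive and a median of 0.52, and with the granulosa marker level as a covariate the median was −0.06. mt-Nd5 and mt-Nd6, both complex I subunits, were the 2 lower at an unadjusted p under 0.05. mt-Nd6 was at 10.7, 9.87, 5.25 and 8.02 against 16.7, 47.4, 9.99 and 15.8 CPM (−1.41 ± 0.45, and −0.74 ± 0.35 without that library). Its granulosa level was 322 CPM. The 46 nuclear genes of oxidative phosphorylation had a median of −0.03, and 1 was higher at an unadjusted p under 0.05, Uqcrh, a complex III subunit, at 112, 122, 119.8 and 112 against 85.9, 91.5, 116 and 101 CPM (0.24 ± 0.11). Cholesterol synthesis and uptake had 5 of 24 lower at an unadjusted p under 0.05 (2.72% of all genes tested), 22 negative and a median of −0.24. Without control replicate 2 it had 1 lower and a median of −0.08, and without control replicates 1 and 2 it had 0 lower, 12 positive and a median of −0.02. Mvd, an enzyme of the mevalonate pathway, was at 17, 17, 15.2 and 17.5 against 21.5, 38.3, 24.3 and 20.5 CPM, without overlap (−0.65 ± 0.21, and −0.41 ± 0.18 without control replicate 2). Acat2, which makes acetoacetyl-CoA, was at 17.6, 24.3, 16 and 13.4 against 36.6, 75.8, 23.1 and 20.3 CPM (−1.13 ± 0.37, and −0.58 ± 0.28). Oocytes make little cholesterol themselves and receive it from granulosa cells, which held 116 CPM of Mvd and 378 CPM of Acat2.

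Glycolysis is likewise carried out largely by granulosa cells. Of 26 tested glycolysis and hypoxia genes 4 were lower at an unadjusted p under 0.05, with a median of −0.12 (−0.02 with 1 lower without control replicate 2). Gapdh was at 56.6, 33.7, 46.5 and 40.2 against 58.7, 123, 52.1 and 51.1 CPM, with control replicate 2 far above the other 7 libraries (−0.69 ± 0.26, and −0.29 ± 0.19 without it). Tpi1 went otherwise: it was at 90.9, 118, 117 and 104 against 136, 116, 137 and 137 CPM, with control replicate 2 the lowest control (−0.29 ± 0.11, and −0.35 ± 0.12 without it). Of 20 genes of lipid droplets and fatty acid oxidation 1 was lower, the desaturase Scd1, at 0.47, 0, 0.389 and 0 against 5.35, 7.36, 0.925 and 0 CPM (−3.91 ± 1.62). Ceramide and sphingolipid enzymes had 2 of 15 lower. Sgms2, a sphingomyelin synthase, was at 4.47, 4.69, 1.56 and 3.22 against 6.49, 12.8, 7.89 and 6.69 CPM without overlap (−1.28 ± 0.42, and −1.01 ± 0.43 without control replicate 2), and Asah1, a lysosomal ceramidase, had −0.89 ± 0.38 (−0.51 ± 0.36).

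Protein turnover genes were tightly measured. All 33 proteasome subunit genes had a log2 difference within 0.5 of 0, with a median of −0.04. The 1 with an unadjusted p under 0.05 was Psmd11, a lid subunit, at 170.4, 150.1, 172 and 175 against 205, 199.9, 192 and 212 CPM, without overlap (−0.28 ± 0.12). All 25 ubiquitin hydrolases and oocyte ubiquitin ligases were within 0.5 too, 19 of them positive, with 2 higher at an unadjusted p under 0.05. Bap1, a nuclear deubiquitinase, was at 135, 143, 128 and 131 against 91.2, 119, 121 and 94.2 CPM, without overlap (0.33 ± 0.14). Skp1, a core subunit of SCF ubiquitin ligases, was at 1221, 1437, 1342 and 1337 against 1035, 1227, 1079 and 1159.9 CPM (0.25 ± 0.10). Lysosome and autophagy genes had 2 of 28 lower, Gabarapl1 (−1.72 ± 0.78, and −0.35 ± 0.71 without control replicate 2) and Ctsl. Ctsl, a lysosomal protease that granulosa cells express at 1744 CPM, was at 12.2, 4, 5.32 and 3.55 against 19.9, 119, 3.27 and 1.99 CPM (−2.52 ± 1.12, and −0.41 ± 0.67). Of 26 unfolded protein and ATF4 genes the 1 lower was the oxidase gene Ero1a (−1.10 ± 0.49), and of 16 heat shock genes it was Hsp90ab1, a cytosolic chaperone, at 423, 331, 315 and 326 against 373, 627, 381 and 441 CPM (−0.39 ± 0.16, and −0.20 ± 0.12 without control replicate 2). Sec61a1, the channel for proteins entering the endoplasmic reticulum, was the 1 lower of 23 cortical granule and trafficking genes (−0.23 ± 0.10).

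Among 29 p53 targets and apoptosis genes 2 were lower at an unadjusted p under 0.05. Bax, which opens the mitochondrial membrane in apoptosis, was at 24.8, 26.6, 29.3 and 27.6 against 33.5, 37.1, 35.1 and 32.7 CPM (−0.36 ± 0.13). Xiap, which inhibits caspases, was at 6.29, 6.21, 5.13 and 7.1 against 8.16, 13.5, 8.26 and 10 CPM (−0.69 ± 0.26, and −0.51 ± 0.27 without control replicate 2). Both genes, of opposite roles in cell death, had every blebbistatin library below every control. Granulosa controls held 254 and 49.5 CPM.

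Of the connexins that form the gap junctions of the follicle, 2 were named. Gja4, the connexin that oocytes contribute, was at 852, 927, 895 and 781 against 767, 634, 944 and 860.0 CPM (0.11 ± 0.13, 95% interval −0.17 to 0.39). Gja1, the connexin that joins granulosa cells to each other, was at 87.1, 19, 18.7 and 7.83 against 138, 582, 5.36 and 5.31 CPM. It followed Inha from library to library, with control replicate 2 the highest of the 8 (−2.46 ± 1.49, and −0.57 ± 1.35 without it). Among 18 junction genes the 1 with an unadjusted p under 0.05 was Tjp1, a tight junction scaffold, at 29.1, 30.2, 27.2 and 43.1 against 43.6, 58, 30.3 and 46.4 CPM (−0.46 ± 0.20, and −0.31 ± 0.20 without control replicate 2). The granulosa markers had 6 of 18 tested lower at an unadjusted p under 0.05, 16 negative and a median of −2.18, and 2 lower with a median of −0.59 without control replicate 2. Without control replicates 1 and 2 the direction turned, with 12 of 18 positive and a median of 0.43, and with the granulosa marker level as a covariate the median was −0.19. Both moves were largely built in. Control replicates 1 and 2 were the controls with most Inha, while blebbistatin replicate 1 was kept. The covariate is the mean log2 level of this same list. Neither setting is therefore a separate result about these markers. With all 4 controls and without control replicate 2, Inha had −2.49 ± 1.49 and −0.45 ± 1.30. Inhbb had −4.18 ± 1.65 and −2.78 ± 1.51, Amh −4.63 ± 1.63 and −2.62 ± 1.34, and Nr5a1, the steroidogenic nuclear receptor, −4.75 ± 1.50 and −3.09 ± 1.52. Serpine2, a protease inhibitor that these oocytes express as well, was at 362, 374, 373 and 369.7 against 482, 724, 394 and 459 CPM, without overlap (−0.48 ± 0.16, and −0.27 ± 0.13).

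Many matrix genes were too low in oocytes to be tested. Of 32 matrix genes 14 were tested, and the 1 lower was Fbln1, a matrix glycoprotein, at 2.06, 1.17, 2.66 and 0.789 against 5.15, 21.4, 3.21 and 2.05 CPM (−2.24 ± 0.66, and −1.05 ± 0.50 without control replicate 2). Of 20 tested focal adhesion and integrin genes 0 had an unadjusted p under 0.05. The endothelial marker gene Pecam1, which these oocytes expressed while granulosa controls held 1.2 CPM, was at 127, 122, 106 and 95 against 105, 90.4, 65.4 and 82.4 CPM (0.39 ± 0.16), and Flt1 had −0.94 ± 0.42. Channels that open on stretch or calcium had 0 of 16 at an unadjusted p under 0.05, and nuclear lamina and LINC genes 0 of 15, with medians of 0.04 and 0.04. Likewise 0 of 26 nuclear pore and import genes, 0 of 8 septins and 0 of 6 oocyte-secreted growth factor genes had one, with medians of −0.11, −0.20 and 0.12. Osmotic and cell volume genes had 2 of 16 lower, both weakly expressed: Nfat5 at 1.14, 1.8, 1.6 and 0 CPM in controls and 0 in blebbistatin replicates 1 and 2, and Slc12a4 (−2.11 ± 0.94).

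**Figure D5:**
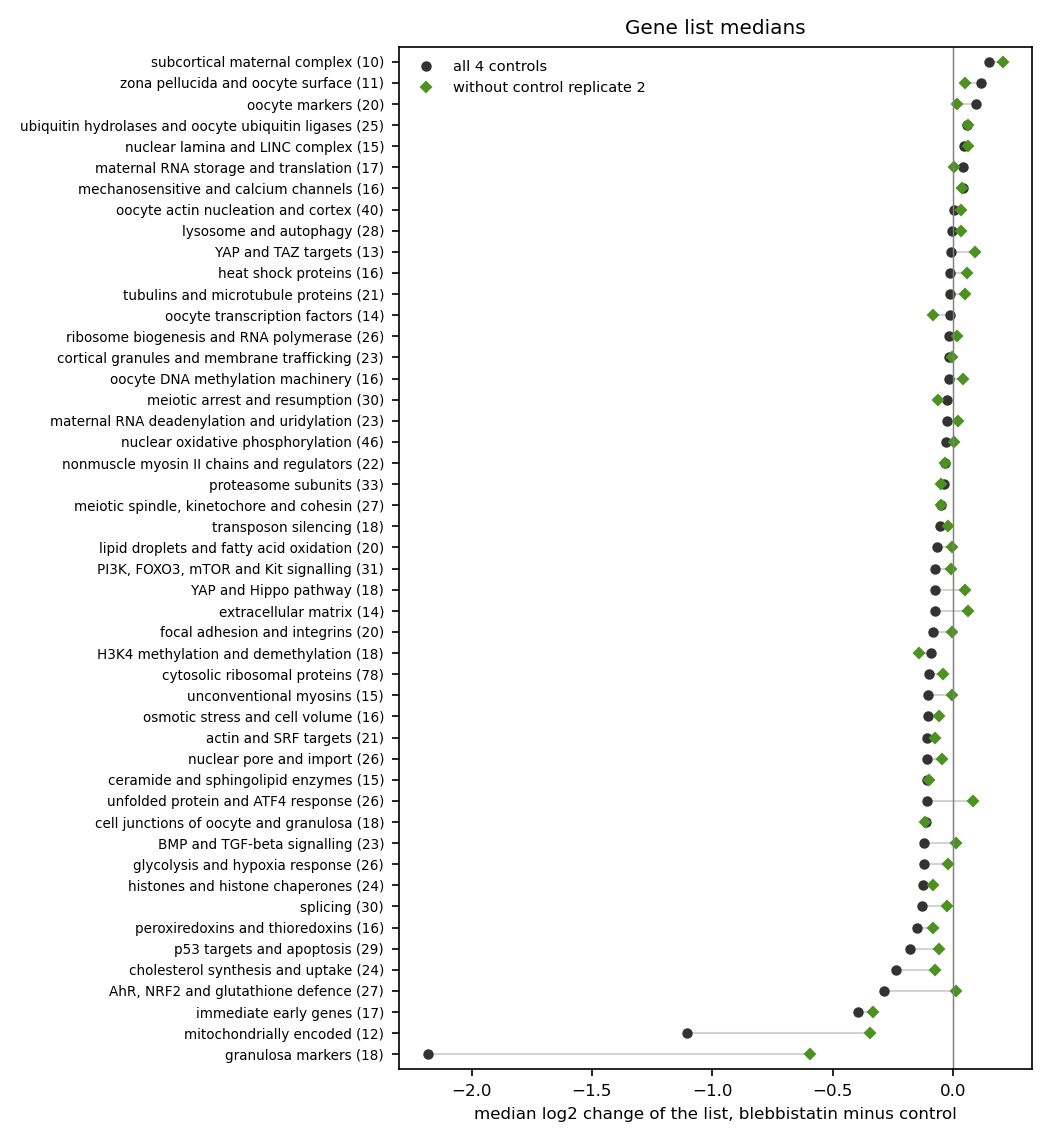
Median log2 difference (blebbistatin minus control) of the 48 gene lists with at least 10 tested members (number in brackets), with all 4 controls (circles) and without control replicate 2 (diamonds). Granulosa markers and mitochondrially encoded genes lie farthest from 0 and move most, from −2.18 to −0.59 and from −1.10 to −0.35, while actin, proteasome and spindle lists stay near 0.

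Oocytes of the dextran group, whose follicles were compressed by an osmotic pressure of 10 kPa, gave a second reference. Of 16749 genes 0 differed between blebbistatin and dextran oocytes (edgeR, 0% called; 682 at an unadjusted p under 0.05, 4.07%). This comparison shares the blebbistatin libraries with the main one, so it is not independent of it. Anp32b was at 183, 179, 197 and 222 CPM in the dextran oocytes, between the blebbistatin and the control means (blebbistatin minus dextran −0.49 ± 0.12, unadjusted p = 0.000867). Ash2l was at 54, 58.9, 44 and 64.7 CPM there (−0.53 ± 0.14, unadjusted p = 0.00146), and Noct at 91.5, 115, 166 and 145 CPM (−0.75 ± 0.18, unadjusted p = 0.000647). Tut7 was at 44.1, 38.8, 47.7 and 39.2 CPM, near the control level (−0.74 ± 0.17, unadjusted p = 0.000465). All 4 had an edgeR adjusted p of 0.999 against dextran. Dextran oocytes were themselves lower than controls for Anp32b (dextran minus control −0.31 ± 0.12, edgeR adjusted p = 0.878) and Ash2l (−0.36 ± 0.14, edgeR adjusted p = 0.878). Wdr59 was at 4.82, 1.9, 2.73 and 3.44 CPM in the dextran oocytes (blebbistatin minus dextran −0.81 ± 0.45, edgeR unadjusted p = 0.0887). Its dextran minus control value was −1.42 ± 0.44 (edgeR unadjusted p = 0.0053, adjusted p = 0.857). For Bcas1 and Trpm4 the dextran oocytes were at 34.1, 46.2, 40 and 48.8 and 6.67, 6.01, 8.13 and 8.74 CPM, close to the blebbistatin level (0.00 ± 0.15 and 0.03 ± 0.30).

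The difference between the cell types in their response to blebbistatin was tested over all 24 libraries. Of 20601 genes 10 passed (edgeR interaction, 0.0485% called; 2322 at an unadjusted p under 0.05, 11.3%), and none of the 98 genes named for oocytes by rule was among them. That count ran from 2 to 103 when 1 library was left out, with 103 without granulosa blebbistatin replicate 2. Anp32b had an oocyte log2 difference of −0.80 and a granulosa one of 0.18 ± 0.16, each from a fit of its own cell type. The interaction was −1.06 ± 0.23 (edgeR adjusted p = 0.0925). It was fitted over all 24 libraries with its own filter and scaling, so it is not exactly the difference of those 2 values. For Ash2l the granulosa value was 0.12 ± 0.17 and the interaction −1.08 ± 0.23 (edgeR adjusted p = 0.0909). Neither passed.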

How the data were processed

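RNA sequencing measured transcripts in 12 oocyte and 12 granulosa cell libraries. For each cell type the authors deposited 1 table of estimated counts, which the labels name as merged salmon output. The submitters' processing notes give the genome build as GRCm39. Which aligner, annotation release and strand setting were used is not given in the sources used here, so overlapping and antisense genes cannot be told apart, and near-identical copies may share reads. Libraries were amplified over 15 PCR cycles, per the labels' protocols. No molecular identifiers are described, so counts are not independent molecules.

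Estimated counts were rounded, filtered with filterByExpr, scaled with TMM factors and fitted over the 12 oocyte libraries by the robust quasi-likelihood functions of edgeR 4.0.16 (glmQLFit, glmQLFTest; R 4.3.3). Benjamini-Hochberg adjustment covered all genes tested, and the threshold was 0.05. The difference between cell types was an interaction over 24 libraries. DESeq2 1.42.0, limma voom 3.58.1, other scalings and filters, a replicate block, a granulosa covariate and leaving out libraries were alternatives. Sample columns left unused numbered 0. Classes of granulosa-rich and oocyte-rich genes used a pseudocount of 1 CPM. The steps were tested on simulated data. Replicates differed by at least 12.4 in chi-square per gene with 10 or more counts, far above sampling noise, so none was taken as a duplicate.

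The members and the 55 gene lists (1206 distinct genes, of which 6 were absent from the table) were chosen with earlier results of these data known. Genes are named by this rule: with a mean of at least 5 CPM and a symbol that is not a predicted gene, up to 12 per direction that passed, or else the 6 with the smallest p, up to 2 members per direction of each list with an unadjusted p under 0.05, and a set of anchor genes. This gave 98 genes. Other names are said to have been chosen after their values were seen. Coordinates are left out, since the reference used for names is of another build.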

Additional observations from a re-analysis of the deposited data

Results flagged for a closer look

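In 15 of 212 groups of 4 libraries, 1 library stood far from the other 3, past the 95% critical value of Dixon's test of the gap over the range. In independent groups chance does so in about 1 in 20. These groups share libraries, and many of their genes were named by p in the same data, so that rate is only a rough guide. Control replicate 2 was the high library for Anp32b (293 CPM, next 229), Fbln1 (21.4, next 5.15), Gapdh (123, next 58.7), Prdx4 (31.9, next 7.23), Ctsl (119, next 19.9) and Spire1 (292, next 219), and the low one for Tpi1 (116, next 136). Control replicate 1 was low for Zp2 (891, next 1031). Among blebbistatin libraries, replicate 1 was high for Hsp90ab1 (423 CPM, next 331), for Gja1 (87.1, next 19.0), for the summed granulosa markers (921 CPM of the library total, next 635) and for that sum as a share of the granulosa level (3.56%, next 2.45%). Within a treatment the share is the sum over a constant, so the sum and the share are not separate observations. Replicate 3 was high for Ash2l (42.6, next 37.1) and Gsta4 (80.4, next 63.7), and replicate 4 for Nr5a1 (0.395, next 0.0588). Control replicate 2 held the most Inha of the controls and blebbistatin replicate 1 the most of the blebbistatin libraries. The part of granulosa RNA in these single values was not tested.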

How the results depend on the processing

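The count of genes that differed between blebbistatin and control oocytes was 0 by edgeR with RLE size factors, the replicate block, only the 2 groups compared, the granulosa marker level as a covariate or mitochondrially encoded genes left out, by limma voom, and without any 1 oocyte library. It was also 0 without control replicates 1 and 2, a setting added after seeing the data. It was 4 with no filter on low values, 2 with at least 5 CPM in 4 libraries and 16 by DESeq2. The cause was not tested. Over 22 alternatives the log2 difference of Anp32b ran from −0.85 to −0.69 and that of Ash2l from −0.94 to −0.83. Blebbistatin against dextran stayed at 0 genes in every alternative run for it. The count of genes whose response differed between cell types was 382 by DESeq2, 18 by limma voom and 5 with the replicate block, against 10, and 2 to 103 when 1 library was left out. It was 103, 22, 26, 18 and 18 without granulosa blebbistatin replicate 2 or 4 or dextran replicate 3, 1 or 4, and 3 without granulosa control replicate 3. Among oocyte libraries it was 2 without blebbistatin replicate 1, 2 or 3, control replicate 1 or dextran replicate 4, 3 without blebbistatin replicate 4 or dextran replicate 1, 4 without control or dextran replicate 3, and 6 without control or dextran replicate 2. Replicate numbers were not shown to pair the samples: deviations of same-numbered blebbistatin and control libraries correlated at 0.19, −0.023, 0.26 and 0.22 for replicates 1 to 4, and 2 of the 4 blebbistatin libraries correlated best with their own number.

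Directions that reversed belonged to genes near 0 or to genes that granulosa cells express. The granulosa marker level is the mean of a list that holds Inha and Gja1, so their values with that covariate are no separate result. Control replicates 1 and 2 were the controls with most Inha, so a rise of granulosa genes without them was largely built in. With the granulosa marker level as a covariate the log2 differences became 0.39 (Tdg), 0.073 (Gabarapl1), 0.55 (Ctsl), 0.98 (Inha), 1.41 (Gja1), −0.010 (Gja4), 0.36 (Ftl1), 1.79 (Cyp1b1), 0.19 (Kit), 0.40 (Myh10), −0.055 (Nobox), 0.079 (Myl12b), −0.063 (Zp1) and −0.11 (Figla). Without control replicates 1 and 2 they became 0.43 (Amh), 0.091 (Cd81), 0.22 (Prdx4), 0.23 (Inhbb), 0.79 (Tdg), 0.47 (Gabarapl1), 1.25 (Ctsl), 1.68 (Inha), 2.63 (Gja1), −0.067 (Gja4), 0.48 (Ftl1), −0.021 (Zp3), 2.83 (Cyp1b1), 0.26 (Kit), 0.40 (Myh10), −0.11 (Nobox), 0.13 (Myl12b), −0.11 (Zp1) and −0.17 (Figla). Cyp1b1 had 0.77 by limma voom and 0.35 with the replicate block. Leaving out 1 library at a time gave ranges that crossed 0 for 15 genes: −0.065 to 0.019 (Myl12a), −0.073 to 0.12 (Rock1), −0.16 to 0.18 (Figla), −0.010 to 0.24 (Zp2), −0.22 to 0.031 (Fmn2), −0.0088 to 0.15 (Zp3), −0.036 to 0.10 (Zp1), −0.49 to 0.44 (Myh10), −0.69 to 0.28 (Ftl1), −0.74 to 0.38 (Cyp1b1), −0.20 to 0.14 (Kit), −0.066 to 0.092 (Nobox), −0.20 to 0.086 (Myl12b), −0.10 to 0.43 (Actg1) and −0.11 to 0.033 (Rhoa). None of these had passed in any direction. As a share of the granulosa libraries of the same treatment, the summed marker list stood at 2.25% to 3.56% after blebbistatin and Inha alone at 0.14% to 1.79%. The list holds genes that oocytes express too, such as Serpine2, so its value is not a share of granulosa RNA. With 4 libraries per group and 1 or 2 oocytes per library, the unadjusted 95% interval reached a 2-fold difference for most genes under 5 CPM. Which differences could have passed the adjusted threshold at higher levels is not shown by these intervals.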
